A study of Mus musculus with 6 samples.

Results

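The FOXO forkhead factors *Foxo1*, *Foxo3* and *Foxo4* and 7 of their known target genes, *Irs2*, *Sesn1*, *Sesn3*, *Ccng2*, *Bcl6*, *Pik3ip1* and *Fbxo32*, were followed in mouse podocyte messenger RNA. A gene was taken as the locus whose gene name held its symbol, at the highest mean where a symbol had several loci. All 10 genes were found at 1 locus each among the 24469 loci of the table, and all 10 were among the 10562 loci with a mean of at least 1 FPKM (fragments scaled to transcript length and to the depth of the library) that were tested.

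The cells were MPCs, a conditionally immortalized mouse podocyte line that divides with interferon gamma and was differentiated without it, used at passages 10-15. All 6 libraries came from serum-starved cells kept in high glucose (HG, 25 mM) for 12 h, with mannitol named as the osmotic control. The HG group (n = 2) had no pretreatment, while the other groups had 100 ng/mL of rFGF1WT (n = 2) or rFGF1ΔHBS (n = 2) for 1 h before HG. rFGF1WT is recombinant fibroblast growth factor 1, and rFGF1ΔHBS is a variant with its heparan sulfate binding site altered, so that it is a partial agonist of the FGF receptors. The model is 1 cell line, no library at normal glucose was analysed here, and each comparison therefore asks what the growth factor did to these genes within HG.

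FOXO proteins are transcription factors that bind a forkhead motif in DNA and switch on genes of cell cycle arrest, stress defence, autophagy, protein breakdown and cell death. Insulin and growth factors, acting through PI3K, lead AKT to phosphorylate FOXO proteins, which then bind phosphoserine-binding adaptor proteins and leave the nucleus. FOXO targets include inhibitors and adaptors of the same insulin and PI3K route. Phosphorylation and location of the proteins are not read by RNA-Seq, which gives only the messenger RNA of the factors and of their targets.

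Deposited values summed to between 179594 and 185168 FPKM per library. Many low values fell on regular steps, which corresponded to between 22341403 and 23225443 fragments per library if 1 step is 1 fragment. Of the low values, 40.5% to 42.9% lay within 0.05 of a whole step, where evenly spread values would give 10%. The step was taken from the same values, so that share is not a separate check of it. Pearson's r of log2(FPKM + 1) over the tested loci was 0.916 to 0.923 within groups and 0.895 to 0.924 between them. The ranges overlapped, and the highest r was between groups. Of 14 podocyte markers, 8 had a mean of at least 1 FPKM, among them *Synpo*, *Podxl*, *Cd2ap* and *Actn4*, while the defining markers *Nphs1* and *Wt1* averaged 0.781 and 0.0376 FPKM. The summed level of that list was 364 to 376 FPKM in HG, 477 to 480 FPKM with rFGF1WT and 453 to 471 FPKM with rFGF1ΔHBS. Its members did not move together: *Nes*, *Vim*, *Actn4* and *Kirrel* were higher in all 4 FGF1 libraries than in either HG library, while *Synpo* (9.58 and 10.2 FPKM in HG, 4.01 to 6.83 FPKM with FGF1) and *Podxl* (16.7 and 17.6 against 14.8 to 15.8 FPKM) were lower in all 4. Summed tubular markers, carried by *Lrp2* and *Aqp1*, were at 61.6 to 73.3, 44.1 to 47.6 and 40.5 to 49.7 FPKM in the same order. Mesangial and smooth muscle markers summed to 40.3 to 45.6 FPKM over the 6 libraries, with *Acta2* higher (10.8 and 12.7 FPKM in HG, 14.1 to 17.7 FPKM with FGF1) and *Pdgfrb* lower (31.8 and 32.7 against 26.1 to 27.5 FPKM) in all 4 FGF1 libraries. The part of these shifts in the results was not tested. Endothelial and immune markers summed to at most 0.167 and 0.229 FPKM in any library.

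With FGF1, *Ccng2* and *Fbxo32* messenger RNA fell with both proteins, and *Foxo4* fell with rFGF1ΔHBS, at a Benjamini-Hochberg adjusted p under 0.05 in limma. *Foxo3* had estimates below 0 and *Foxo1* above 0 with both proteins, and neither passed the threshold. No gene of the 10 rose past the threshold. In bulk RNA, fewer cells that make a transcript and less of it per cell cannot be told apart.

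**Figure D1:**
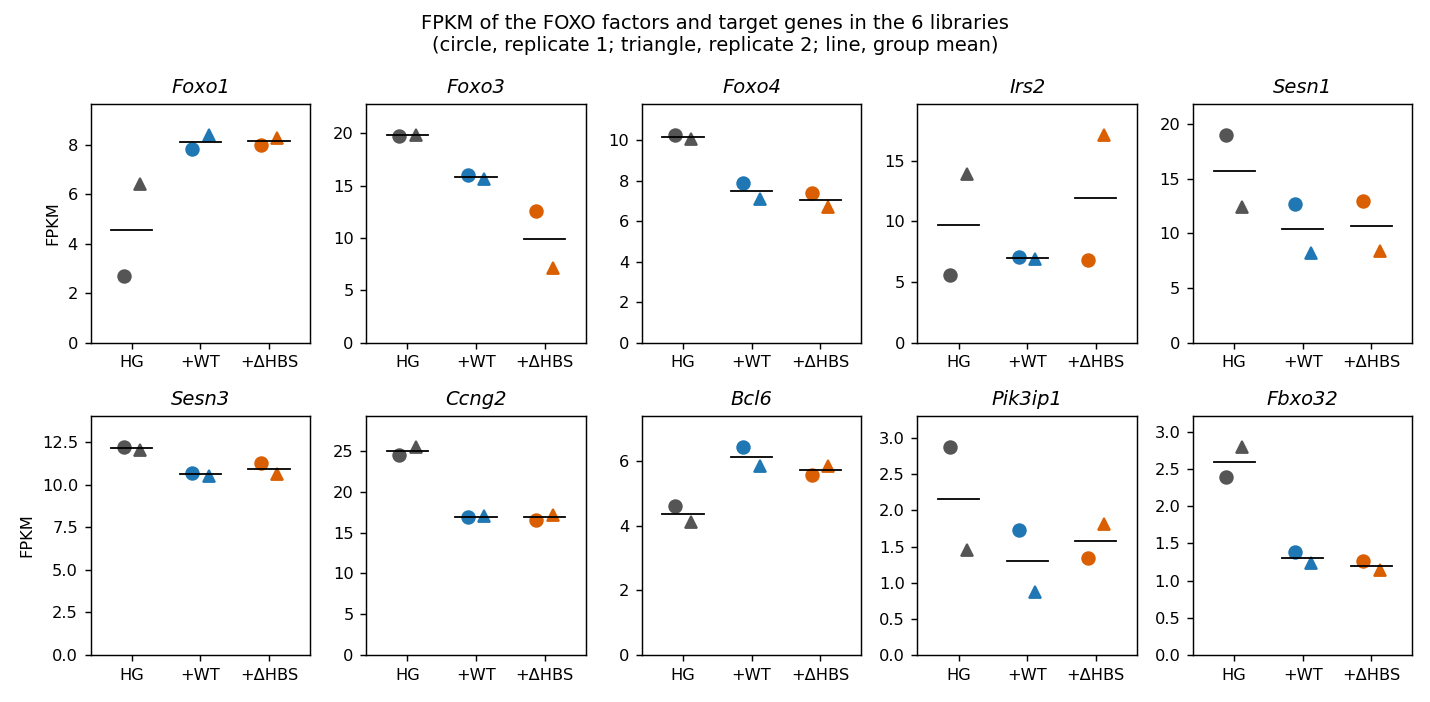
FPKM of each gene in the 6 libraries, with replicate 1 as a circle, replicate 2 as a triangle and the group mean as a line, on linear axes that start at 0. *Ccng2* and *Fbxo32* have all 4 FGF1 libraries below both HG libraries with little spread, whereas the libraries of 1 group lie far apart for *Foxo1* in HG, *Foxo3* with rFGF1ΔHBS, and *Irs2* in HG and with rFGF1ΔHBS.

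*Foxo3* (GRCm38 chr10:42181841-42276755, minus strand, 5 annotated transcripts) had the highest level of the factors per length in HG. Its level was 19.8 and 19.9 FPKM in HG, 16.0 and 15.7 FPKM with rFGF1WT, and 12.6 and 7.17 FPKM with rFGF1ΔHBS. All 4 FGF1 libraries lay below both HG libraries, and both rFGF1ΔHBS libraries lay below both rFGF1WT libraries, but the rFGF1ΔHBS pair was itself 1.75-fold apart, a gap that 7.20% of tested loci reached in that group. On the log2(FPKM + 1) scale used for all fold changes here, which understates changes of low genes, the difference from HG was -0.31 with rFGF1WT (95% confidence interval -0.98 to 0.37, adjusted p = 0.511). With rFGF1ΔHBS it was -0.98 (SE 0.25, interval -1.66 to -0.30, adjusted p = 0.106), and the mean of 9.87 ± 3.83 FPKM (SD, n = 2) was 0.498 of the HG mean of 19.8 ± 0.0516 FPKM. Without replicate 1 of rFGF1ΔHBS the difference was -1.35 (adjusted p = 0.0199), and without replicate 2 it was -0.62, so the size rested on which of those libraries was kept.

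The study quantified *Foxo3* by PCR with a primer pair, which is shown because it tells which transcripts of the locus that assay reads. Each primer is given 5′ to 3′.
Foxo3 forward: ctgggggaacctgtcctatg
Foxo3 reverse: tcattctgaacgcgcatgaag
Matched to GENCODE M21 transcripts, both primers lay in 3 of the 5 transcripts of the locus, with a product of 210 bases whose ends lay at chr10:42197846-42274969, in different exons. The FPKM of the locus joins all of its transcripts, including those without both primer sites. With its PCR the study reported lower *Foxo3* messenger RNA with either protein under HG.

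*Foxo4* (GRCm38 chrX:101254528-101260873, plus strand) was the factor with the closest replicates across all 3 groups. It stood at 10.3 and 10.1 FPKM in HG, 7.90 and 7.11 FPKM with rFGF1WT, and 7.40 and 6.70 FPKM with rFGF1ΔHBS, so that neither FGF1 group overlapped HG while the FGF1 groups overlapped each other. The fall with rFGF1ΔHBS was -0.47 (interval -0.69 to -0.26, adjusted p = 0.0499), to 0.694 of the HG mean. With rFGF1WT the difference was -0.39 (interval -0.61 to -0.18, adjusted p = 0.0731), to 0.738 of the HG mean. The call with rFGF1ΔHBS was at the edge of the threshold and held in 1 of 11 alternative settings, with adjusted p from 0.0496 to 0.179.

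*Foxo1* (GRCm38 chr3:52268336-52353221, plus strand, 1 transcript of 3 exons) was the factor with the higher estimates after FGF1. It was at 2.71 and 6.43 FPKM in HG, 7.84 and 8.41 FPKM with rFGF1WT, and 8.02 and 8.29 FPKM with rFGF1ΔHBS. The 4 FGF1 libraries sat close together and above both HG libraries, but the HG libraries differed 2.37-fold, a gap reached by 5.06% of tested loci in HG. That gap is larger than counting error would give. The HG values correspond to about 539 and 1247 fragments if 1 step is 1 fragment, and counting error alone was 2.46% to 4.31% over the 6 libraries. The difference from HG was 0.80 with each protein (intervals -0.13 to 1.72 and -0.12 to 1.73, adjusted p = 0.255 and 0.253). Without HG replicate 2 it was 1.30 with each (adjusted p = 0.0322 with rFGF1WT and 0.0349 with rFGF1ΔHBS), and without HG replicate 1 it was 0.30 with each.

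**Figure D2:**
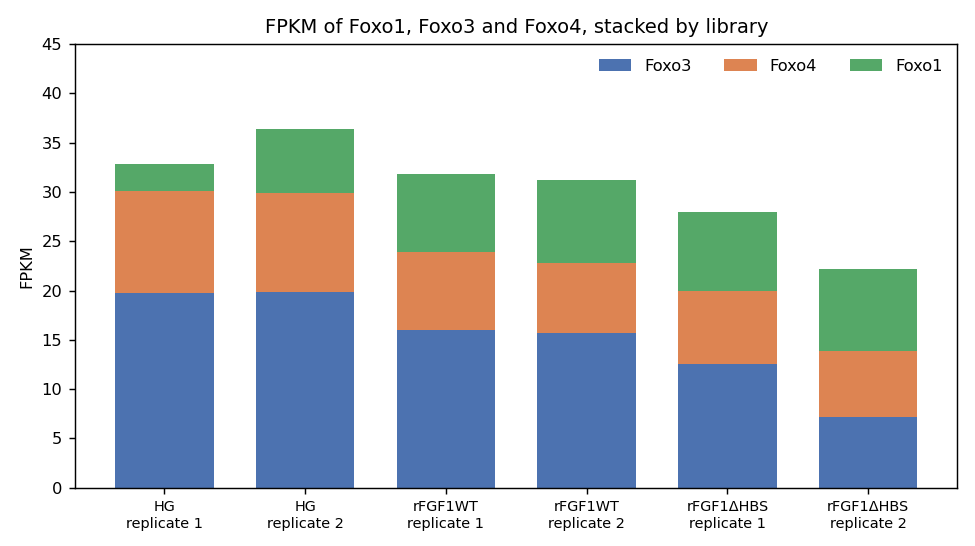
FPKM of *Foxo3*, *Foxo4* and *Foxo1* stacked for each of the 6 libraries, on a linear axis from 0. The stack is 32.8 and 36.4 FPKM high in HG, 31.8 and 31.2 FPKM with rFGF1WT, and 28.0 and 22.2 FPKM with rFGF1ΔHBS.

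Because FPKM is per length, the 3 factors could be added within each library. *Foxo3* made up 60.4% and 54.7% of their sum in the HG libraries, 50.5% and 50.2% with rFGF1WT, and 44.9% and 32.3% with rFGF1ΔHBS. *Foxo1* made up 8.27% and 17.7% in HG, 24.7% and 27.0% with rFGF1WT, and 28.6% and 37.4% with rFGF1ΔHBS. The *Foxo3* share was thus lower, and the *Foxo1* share higher, in all 4 FGF1 libraries than in either HG library, and *Foxo1* exceeded *Foxo3* in 1 library only, rFGF1ΔHBS replicate 2. *Foxo4* kept between 22.8% and 31.3% in all 6. These shares use the same values as the levels above and carry no test. *Foxo6*, the remaining FOXO gene, averaged 0.511 FPKM and was below the filter.

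*Ccng2* (GRCm38 chr5:93267257-93276231, plus strand) encodes cyclin G2, an unconventional cyclin linked to cell cycle arrest, and had the smallest adjusted p of the 10 genes. Its level was 24.6 and 25.5 FPKM in HG, 16.9 and 17.0 FPKM with rFGF1WT, and 16.5 and 17.2 FPKM with rFGF1ΔHBS. The 4 FGF1 libraries lay close together and under both HG libraries, with no overlap. The fall was -0.53 with rFGF1WT (SE 0.052, interval -0.67 to -0.40, adjusted p = 0.0181) and -0.54 with rFGF1ΔHBS (SE 0.052, interval -0.68 to -0.40, adjusted p = 0.0188), to 0.678 and 0.675 of the HG mean. In both comparisons the sign held in all 11 alternatives and the call in 3 of them, with adjusted p from 0.0189 to 0.0833 and from 0.0188 to 0.0744.

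*Bcl6* (GRCm38 chr16:23965052-23988852, minus strand), a zinc finger repressor of transcription, was the only target among the 7 with all 4 FGF1 libraries above both HG libraries. It was at 4.60 and 4.12 FPKM in HG, 6.43 and 5.84 FPKM with rFGF1WT, and 5.58 and 5.84 FPKM with rFGF1ΔHBS. The difference from HG was 0.41 with rFGF1WT (interval 0.19 to 0.64, adjusted p = 0.0725) and 0.33 with rFGF1ΔHBS (interval 0.10 to 0.55, adjusted p = 0.105). Neither passed the threshold over all tested loci.

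The sestrins are stress-induced proteins that restrain mTORC1, a growth-promoting kinase complex. *Sesn3* (GRCm38 chr9:14275067-14333101, plus strand) stood at 12.2 and 12.0 FPKM in HG, 10.7 and 10.5 FPKM with rFGF1WT, and 11.2 and 10.6 FPKM with rFGF1ΔHBS. The groups with FGF1 lay below HG without overlap, but by small amounts of -0.18 (interval -0.33 to -0.03, adjusted p = 0.156) and -0.14 (interval -0.29 to 0.01, adjusted p = 0.229).

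*Sesn1* (GRCm38 chr10:41809935-41908424, plus strand) had overlapping groups. Its level was 19.0 and 12.4 FPKM in HG, 12.7 and 8.20 FPKM with rFGF1WT, and 13.0 and 8.36 FPKM with rFGF1ΔHBS. Replicate 1 was above replicate 2 by nearly the same factor in each group, 1.53, 1.54 and 1.55. Set against the HG library with its own number, the rFGF1WT libraries were at 0.666 and 0.661 and the rFGF1ΔHBS libraries at 0.683 and 0.674. Without the numbers, the differences were -0.55 (interval -1.46 to 0.37, adjusted p = 0.400) and -0.52 (interval -1.43 to 0.40, adjusted p = 0.423). With the replicate number as a block, which over all loci did not pair the libraries, adjusted p was 0.0698 and 0.0737.

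*Sesn1* was also the only gene, of the 8 with a RefSeq promoter sequence, with a forkhead motif in it, which is why that stretch is shown. Promoters of 300 bases, from 250 before to 50 after the start, were searched on both strands for GTAAACA, and the 8 genes had 10 promoters (*Foxo4* and *Fbxo32* had no entry). *Sesn1* had 2 promoters, of which chr10:41810324-41810623 held 1 match and chr10:41887189-41887488 held 0. The match began 22 bases after the start of that promoter's transcript, not before it. It lay on the strand opposite to the gene at chr10:41810596-41810602 (GRCm38.p6). The stretch is printed with 10 bases on either side (chr10:41810586-41810612), on the plus strand, 5′ to 3′, with the motif in capitals.
Sesn1: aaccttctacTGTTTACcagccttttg
The motif was present in 3.65% of all 32851 promoters in that table. Either GTAAACA or the related form ATAAACA, or the form GTAAATA or else the form ATAAATA, was present in 15.0% of them, and still in only 1 of the 8 genes. A match of letters is not a measured binding site, and sequence outside these windows was not searched.

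*Irs2* encodes insulin receptor substrate 2, an adaptor between the insulin and IGF1 receptors and PI3K (GRCm38 chr8:10984681-11008458, minus strand, 2 exons). It was at 5.61 and 13.9 FPKM in HG, 7.04 and 6.94 FPKM with rFGF1WT, and 6.80 and 17.2 FPKM with rFGF1ΔHBS. HG replicate 2 and rFGF1ΔHBS replicate 2 were high and the other 4 libraries low, which does not follow the groups. In implied fragments, the high libraries held about 1967 and 2454 and the low ones 814 to 999, with counting error of 2.02% to 3.51%. The differences from HG were -0.31 with rFGF1WT (interval -1.86 to 1.23, adjusted p = 0.776) and 0.26 with rFGF1ΔHBS (interval -1.28 to 1.81, adjusted p = 0.822). Without HG replicate 2 the rFGF1WT value was 0.27, and without rFGF1ΔHBS replicate 2 or HG replicate 1 the rFGF1ΔHBS value was -0.35 or -0.32, so these data gave no direction for *Irs2*.

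*Pik3ip1* (GRCm38 chr11:3330401-3342971, plus strand), a membrane protein that inhibits the PI3K catalytic subunit, was low in all libraries. Its level was 2.87 and 1.45 FPKM in HG, 1.73 and 0.872 FPKM with rFGF1WT, and 1.35 and 1.81 FPKM with rFGF1ΔHBS, and all 3 groups overlapped. The differences of -0.45 (interval -1.28 to 0.39, adjusted p = 0.442) and -0.26 (interval -1.10 to 0.57, adjusted p = 0.648) were within the spread between replicates. Without HG replicate 1 the value with rFGF1ΔHBS was 0.07.

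*Fbxo32* (GRCm38 chr15:58175879-58214932, minus strand, 1 transcript of 9 exons) encodes atrogin-1, the substrate-binding part of a ubiquitin ligase best known from muscle wasting. It had the lowest HG level per length after *Pik3ip1*, 2.39 and 2.79 FPKM, and was at 1.39 and 1.23 FPKM with rFGF1WT and 1.26 and 1.14 FPKM with rFGF1ΔHBS. All 4 FGF1 libraries were far under HG, at about 180 to 216 implied fragments against 383 and 436, with counting error of 4.79% to 7.46%. The fall was -0.64 with rFGF1WT (SE 0.10, interval -0.91 to -0.36, adjusted p = 0.0458) and -0.70 with rFGF1ΔHBS (SE 0.10, interval -0.98 to -0.43, adjusted p = 0.0369). In FPKM the means were 0.505 and 0.463 of the HG mean of 2.59 ± 0.285 FPKM (SD, n = 2), and with a pseudocount of 0.1 in place of 1 the differences were -0.93 (adjusted p = 0.0508) and -1.05. The calls held in 1 and 2 of the 11 alternatives, with the sign kept in all of them.

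Fragments of overlapping genes may be shared for several of the 10. In GENCODE M21 the loci of *Foxo1*, *Irs2*, *Sesn1*, *Bcl6*, *Pik3ip1* and *Fbxo32* each overlap at least 1 other annotated gene. The counting is not stated to use strand, so reads of such a partner cannot be told apart from those of the gene.

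The 10 genes were chosen with earlier results of these data known, so their share called does not test FOXO genes as a set. Counted together, 2 of the 10 genes were called with rFGF1WT, both lower, and 0 higher, with 5 at an unadjusted p under 0.05. Of all tested loci, 2.94% were called lower and 3.26% higher in that comparison, and 6.19% in all. On the log2(FPKM + 1) scale 1.01% were called with a 2-fold change, which none of the 10 reached. With rFGF1ΔHBS, 3 of the 10 were called, all lower, beside 2.89% of all loci called lower, 3.37% higher, 6.26% in all and 0.899% with a 2-fold change. A further count, at an unadjusted p under 0.05, was 5. The share of all loci at that unadjusted limit was not counted, here or for the lists below. Such counts are therefore not read as an excess. The median log2 fold change of the 10 was -0.35 with rFGF1WT and -0.37 with rFGF1ΔHBS, against -0.04 over all tested loci in both, with 8 and 7 of the 10 below 0. All 4 FGF1 libraries lay below both HG libraries for 5 genes, *Foxo3*, *Foxo4*, *Sesn3*, *Ccng2* and *Fbxo32*, as for 25.5% of all tested loci. They lay above both for *Foxo1* and *Bcl6*, as for 17.1% of loci. The comparisons share their HG libraries and so are not separate evidence. Over all tested loci, fewer were called against HG when any 1 library was left out. Among the 10 genes, the calls of *Ccng2*, *Fbxo32* and *Foxo4* were each lost whichever 1 of the 6 libraries was left out. The only calls in those fits were *Foxo1*, higher, without HG replicate 2 (adjusted p = 0.0322 with rFGF1WT and 0.0349 with rFGF1ΔHBS), and *Foxo3*, lower with rFGF1ΔHBS, without rFGF1ΔHBS replicate 1 (adjusted p = 0.0199 against HG and 0.0367 against rFGF1WT).

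**Figure D3:**
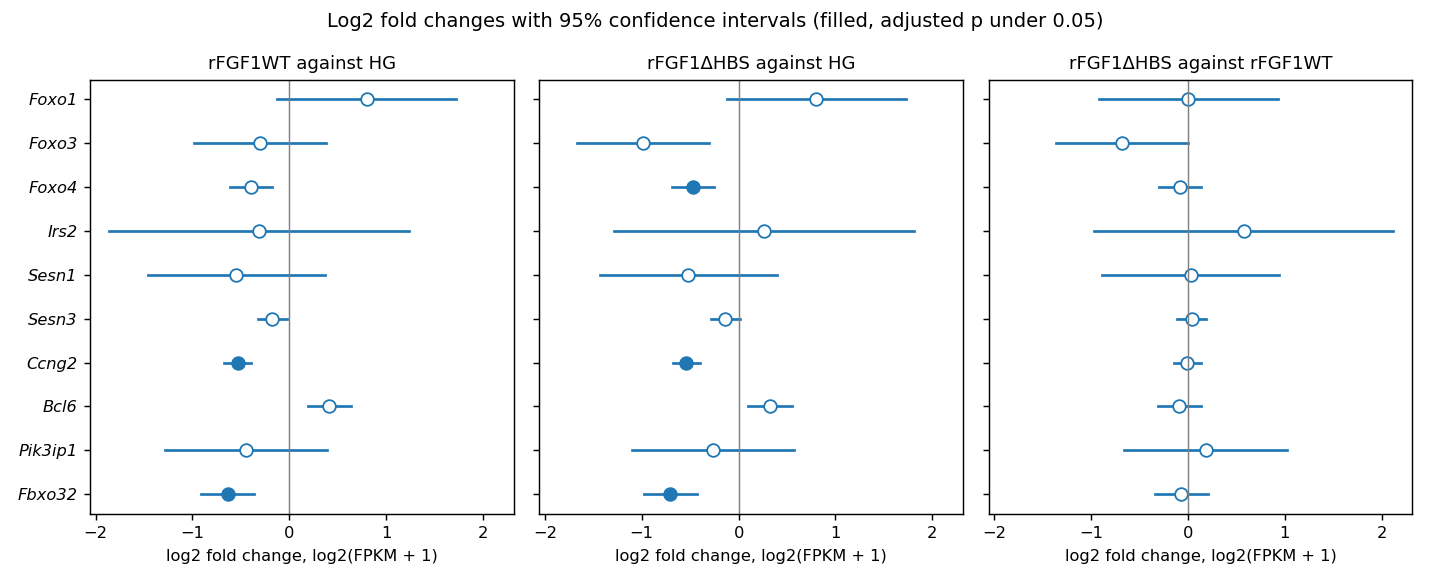
Log2 fold changes on the log2(FPKM + 1) scale with 95% confidence intervals for rFGF1WT against HG, rFGF1ΔHBS against HG and rFGF1ΔHBS against rFGF1WT, with filled points at an adjusted p under 0.05. *Ccng2* is filled at -0.53 and -0.54, *Fbxo32* at -0.64 and -0.70 and *Foxo4* at -0.47, and the third panel has no filled point.

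The 2 proteins, which differ by the altered heparan sulfate binding site, were compared directly at the same dose and time over all 10 genes. None was called in limma, and 0 had an unadjusted p under 0.05, while 0.549% of all tested loci were called. The difference, rFGF1ΔHBS minus rFGF1WT, was bounded most closely for *Ccng2* at -0.0071 (interval -0.15 to 0.13), *Sesn3* at 0.04 (interval -0.11 to 0.19), *Foxo4* at -0.08 (interval -0.29 to 0.14), *Bcl6* at -0.09 (interval -0.31 to 0.14) and *Fbxo32* at -0.07 (interval -0.34 to 0.21). For *Foxo1* it was 0.0055, but with an interval of -0.92 to 0.93. For *Irs2* the interval was -0.97 to 2.12, for *Sesn1* -0.89 to 0.94 and for *Pik3ip1* -0.65 to 1.02. The largest difference with the factors was *Foxo3* at -0.68 (interval -1.36 to 0.00090, unadjusted p = 0.0502, adjusted p = 0.905), and without rFGF1ΔHBS replicate 1 it was -1.04 (adjusted p = 0.0367), against -0.31 without replicate 2. A p above the threshold does not show that the proteins act alike on these genes.

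A wider list of other FOXO targets held 47 genes, of which 42 were in the table and 36 tested. The list was chosen with earlier results of these data known, so its share called does not test FOXO targets as a set. With each protein 9 were called, 5 lower and 4 higher (25% of those tested, beside 6.19% of all loci with rFGF1WT and 6.26% with rFGF1ΔHBS). At an unadjusted p under 0.05 there were 18 with rFGF1WT and 19 with rFGF1ΔHBS, a limit at which all loci were not counted. Their median log2 fold change was -0.12 with rFGF1WT and -0.19 with rFGF1ΔHBS, against -0.04 over all loci. Leaving out any 1 library left fewer of the list called with each protein, and fewer called against HG over all tested loci. *Atg14*, a subunit of the autophagy lipid kinase complex, was at 8.39 and 8.67 FPKM in HG, 3.85 and 2.96 FPKM with rFGF1WT, and 2.83 and 3.03 FPKM with rFGF1ΔHBS, a fall of -1.12 (adjusted p = 0.0208) and -1.28 (adjusted p = 0.0175). *Bcl2l11*, which encodes the death-promoting protein Bim, went from 5.49 and 5.05 FPKM to 2.76 and 3.06 FPKM and to 3.04 and 2.57 FPKM, by -0.68 (adjusted p = 0.0383) and -0.72 (adjusted p = 0.0336). None of the FGF1 libraries reached the HG level of either gene.

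*Bnip3*, a mitochondrial protein of autophagy and cell death, was at 10.5 and 10.5 FPKM in HG and at 7.08 to 7.90 FPKM in the FGF1 libraries, and was called with rFGF1WT (-0.45, adjusted p = 0.0496) but just missed the threshold with rFGF1ΔHBS (-0.44, adjusted p = 0.0514). *Ulk2*, an autophagy-initiating kinase, was called with rFGF1ΔHBS (-0.44, adjusted p = 0.046) and is named after its values were seen. Among the regulators of growth, *Hbp1*, a repressor of cell cycle entry, fell from 19.2 and 19.4 FPKM to 12.4 to 13.3 FPKM, by -0.56 with each protein (adjusted p = 0.0198 and 0.0205). *Erbb3*, a receptor that recruits PI3K, fell from 3.88 and 3.79 FPKM to 1.58 to 2.002 FPKM, by -0.80 and -0.81 (adjusted p = 0.0314 and 0.0308).

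Among the targets that rose, *Ccnd1* and *Ccnd2* encode D cyclins, which promote cell cycle entry and which FOXO factors are known to repress. *Ccnd1* went from 5.53 and 5.05 FPKM in HG to 40.2 and 39.5 FPKM with rFGF1WT and 39.1 and 42.5 FPKM with rFGF1ΔHBS, by 2.70 (adjusted p = 0.00145) and 2.73 (adjusted p = 0.00161). *Ccnd2* went from 3.33 and 3.27 FPKM to 11.3 to 12.1 FPKM, by 1.56 and 1.59 (adjusted p = 0.00345 and 0.00392). These cyclins stayed past the threshold with both proteins in all 11 alternatives. *Gadd45a*, a DNA damage response gene, rose from 4.73 and 4.71 FPKM to 6.63 to 7.73 FPKM, by 0.49 and 0.57 (adjusted p = 0.0461 and 0.0345). *Sesn2*, the third sestrin, rose from 10.0 and 9.90 FPKM to 13.2 to 15.8 FPKM, by 0.43 and 0.57 (adjusted p = 0.0458 and 0.0261), where *Sesn1* and *Sesn3* had negative values. Between the proteins 0 of the 36 were called in limma, with 2 at an unadjusted p under 0.05.

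**Figure D4:**
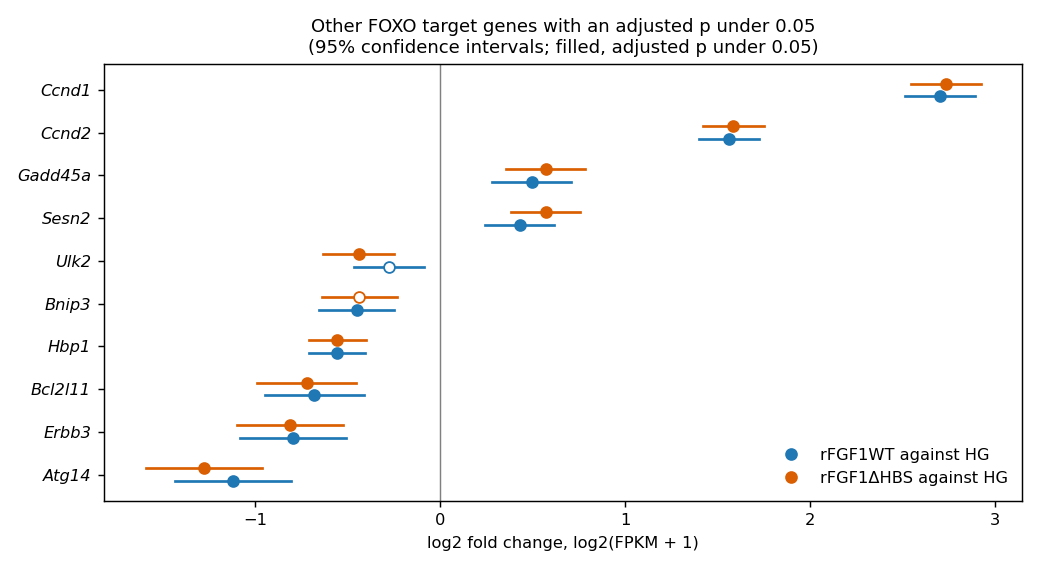
Log2 fold changes on the log2(FPKM + 1) scale, with 95% confidence intervals, of the other FOXO targets called with at least 1 protein, with filled points at an adjusted p under 0.05. *Ccnd1*, *Ccnd2*, *Gadd45a* and *Sesn2* lie above 0, and *Atg14*, *Erbb3*, *Bcl2l11*, *Hbp1*, *Bnip3* and *Ulk2* below it, with both proteins.

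The enzymes and adaptors upstream of the FOXO proteins formed a list of their own. Of its 44 genes, 43 were in the table and 41 tested. With rFGF1WT 1 was called, lower (2.44%, with 10 at an unadjusted p under 0.05). Over all loci 6.19% were called in that comparison, 2.94% lower. With rFGF1ΔHBS 2 were called, both lower (4.88%, with 8 at that unadjusted limit), beside 6.26% of all loci, 2.89% lower. The median log2 fold change of the 41 was 0.03 with rFGF1WT and 0.04 with rFGF1ΔHBS. *Ywhaq*, the theta member of the phosphoserine-binding adaptors that hold FOXO proteins in the cytoplasm, was at 84.1 and 84.1 FPKM in HG, 65.5 and 65.8 FPKM with rFGF1WT and 79.2 and 83.9 FPKM with rFGF1ΔHBS. It fell with rFGF1WT by -0.35 (adjusted p = 0.0308), and the value with rFGF1ΔHBS was -0.04 (adjusted p = 0.603). The difference between the proteins was 0.31 (interval 0.18 to 0.43, unadjusted p = 0.00203, adjusted p = 0.212). *Pik3cd*, a catalytic subunit of PI3K, was at 4.18 and 3.87, 2.97 and 3.15, and 2.29 and 1.95 FPKM in HG, rFGF1WT and rFGF1ΔHBS, and fell with rFGF1ΔHBS by -0.69 (adjusted p = 0.0302). *Pik3r2*, a regulatory subunit, was at 39.1 and 37.9, 32.9 and 30.3, and 29.1 and 29.1 FPKM, and fell with rFGF1ΔHBS by -0.39 (adjusted p = 0.0407). With rFGF1WT these subunits had values of -0.31 and -0.28 (adjusted p = 0.136 and 0.0818). Between the proteins, 0 of the 41 regulators were called in limma, with 3 at an unadjusted p under 0.05.

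The table itself marks 124 loci as KEGG FoxO signaling pathway, 7 of the 10 genes among them. Of the 117 others, which also hold 26 of the 44 regulators and 19 of the 47 targets, 94 were tested. With rFGF1WT 9 were called (9.57%), 3 lower and 6 higher, with 24 at an unadjusted p under 0.05, and with rFGF1ΔHBS 10 (10.6%), 3 lower and 7 higher, with 32. Over all loci 6.19% and 6.26% were called at an adjusted p under 0.05, and the share at an unadjusted p was not counted. Leaving out any 1 library left fewer called against HG, among the KEGG genes and over all tested loci alike. Their medians were -0.06 and -0.01. The 3 lower genes, named after their values were seen, were *Prkaa1*, *Bcl2l11* and *Bnip3* with rFGF1WT and *Prkaa1*, *Bcl2l11* and *Pik3cd* with rFGF1ΔHBS. *Prkaa1*, a catalytic subunit of the energy sensor AMPK, went from 21.3 and 21.0 FPKM in HG to 9.02 to 10.7 FPKM with FGF1, by -1.03 and -1.06 (adjusted p = 0.0172 and 0.0175). The genes higher with both proteins, also named after their values were seen, were *Ccnd1*, *Ccnd2*, *Gadd45a*, *Plk2*, *Plk3* and *Egfr*. The kinase genes *Plk3* and *Plk2* rose by 1.34 and 0.86 with rFGF1WT (adjusted p = 0.00345 and 0.0144) and by 1.23 and 0.82 with rFGF1ΔHBS (adjusted p = 0.00464 and 0.0166). *Egfr*, a growth factor receptor, rose by 0.45 (adjusted p = 0.0343) and 0.57 (adjusted p = 0.0219). The 1 further gene higher with rFGF1ΔHBS was *Prkaa2*. Between the proteins 1 gene was called, *Prkaa2*, the other AMPK catalytic subunit, also named after its values were seen. It was at 1.24 and 1.25 FPKM in HG, 1.07 and 1.42 FPKM with rFGF1WT, and 4.58 and 4.06 FPKM with rFGF1ΔHBS, higher with rFGF1ΔHBS than with rFGF1WT by 1.25 (adjusted p = 0.0473). That call was lost with a pseudocount of 0.1, without the filter, with only the 4 libraries compared and with the replicate block, and 0 genes were called without either HG library, rFGF1WT replicate 2 or rFGF1ΔHBS replicate 2.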

How the data were processed

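RNA-Seq was done on 6 poly(A) libraries of MPCs in 3 groups of 2, assigned by their labels. The authors deposited FPKM, a value per length and depth, for which their methods name edgeR. The submitters' processing notes name Bowtie 0.12.2, HISAT2 2.0, StringTie 1.3.0 and mm8, without their roles. The table gives transcript identifiers but no coordinates. Positions were therefore read from GENCODE M21 (GRCm38), and may differ from the build used.

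Loci with a mean of at least 1 FPKM (10562 of 24469) entered 1 limma 3.58.1 fit (R 4.3.3, trended empirical Bayes) of log2(FPKM + 1) over all 6 libraries, without covariates, two-sided, for 3 comparisons with Benjamini-Hochberg adjustment over all tested loci. A call was an adjusted p under 0.05, the limit in the study's methods, whose 2-fold limit was counted beside it on the log2(FPKM + 1) scale. That scale is stricter than FPKM for low genes. *Fbxo32* with rFGF1ΔHBS was past 2-fold in FPKM but not on that scale. The fit had 3 residual degrees of freedom. A permutation of 2 against 2 libraries cannot go below p = 0.333. The p-values set group differences against the spread between libraries. Nothing says that replicates were separate cultures, so the p-values do not reach beyond these libraries. The fit was run on simulated data with independent normal noise, which checks the code and not the calls made here. Tables and plots used Python 3.11.15, pandas 2.3.3, numpy 2.4.6 and matplotlib 3.10.9.

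The genes and the lists of regulators and other targets were chosen with earlier results of these data known. List genes were named if called in at least 1 comparison, at most the 8 largest changes for each list and comparison. KEGG genes were to be given as counts. The alternatives were a pseudocount of 0.1, no filter, median-ratio scaling, a replicate block, only the 4 libraries compared, and leaving out each library. The single fragment behind depth steps is an inference from the values.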

Additional observations from a re-analysis of the deposited data

How the results depend on the processing

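The 25 calls against HG of the 10 genes and of the named regulators and other targets, *Ulk2* left out, kept their sign in the 11 alternatives, but 4 kept the call in all of them, those of *Ccnd1* and *Ccnd2*. Other KEGG genes were followed only as counts. The numbers did not pair the libraries (r of replicate 1 deviations between groups -0.02, 0.098 and -0.05). With the replicate block 41, 39 and 6 of all loci were called for rFGF1WT against HG, rFGF1ΔHBS against HG and rFGF1ΔHBS against rFGF1WT, in place of 654, 661 and 58, and 21 of the 25 calls were lost. In the comparisons with HG, in that order, calls under the block were 0 and 0 of the 10 genes, 0 and 0 regulators, 2 and 2 other targets, and 3 and 3 KEGG genes, with 0 KEGG genes between the proteins. With only the 4 libraries compared they were 0 and 0, 0 and 0, 2 and 3, and 3 and 5, with 0 between the proteins. Over all loci 1.61% and 1.79% were called in that setting. Without the filter, calls were 1 and 1 of the 10 genes, 0 and 0 regulators and 4 and 5 other targets, with 0 KEGG genes between the proteins. Over all loci 1.66% and 1.58% were called without the filter. With a pseudocount of 0.1, 1 of the 10 genes was called with rFGF1WT and 3 with rFGF1ΔHBS, and 0 KEGG genes between the proteins. Over all loci 6.24% and 6.27% were called against HG with that pseudocount.

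Leaving out each library in turn left fewer calls against HG among the 10 genes, other targets, KEGG genes and all tested loci. For the regulators it raised none of the counts against HG. Fewer degrees of freedom enter the block and each smaller fit. Log2 fold changes whose sign turned were uncalled. For *Irs2* they ran from -0.90 to 0.27 (rFGF1WT against HG), -0.35 to 0.87 (rFGF1ΔHBS against HG) and -0.0343 to 1.18 (between the proteins), and for *Pik3ip1* from -0.59 to 0.0669 (rFGF1ΔHBS against HG) and -0.0886 to 0.46 (between the proteins). Between the proteins they ran from -0.26 to 0.32 for *Sesn1*, -0.0012 to 0.0787 for *Sesn3*, -0.0353 to 0.0211 for *Ccng2* and -0.0399 to 0.0509 for *Foxo1*, which median-ratio scaling put at -0.0043. The cause of these changes was not tested. With 2 libraries a group, intervals wider than 0.9 on the log2 scale on either side, as for *Foxo1*, leave a change of nearly 2-fold undetectable.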
